A study of Mus musculus with 14 samples.

Results

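The regions described here are the places where Mll1 was detected on the chromosomes of untreated mouse embryonic stem cells. They are the 4004 peaks on the 19 autosomes, X and Y that the authors called in a single chromatin immunoprecipitation library for Mll1 against its own input, out of 715437 such peaks in the 10 peak lists of the study. The cells came from C57BL/6J blastocysts, carried Mll1fl/fl and Cre-ER TM, and were grown without feeders on Matrigel with LIF, 5% serum and 15% serum replacement. The same line was used for every group, so the floxed alleles and the Cre are shared by all of them. H3K4me1, H3K4me2 and H3K4me3 were mapped in cells given MM-401, an inhibitor of Mll1, at 100 µM, in cells given 4-OHT, which activates the Cre and so deletes Mll1, at 5 µM (both for 9 days and 3 passages), and in untreated cells, with 1 library each. Mll1 itself was mapped in untreated cells only, in 1 library, so no value below has a replicate check and no p-value was computed. Intervals are exact 95% Clopper-Pearson intervals and cover counting error only.

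Mll1, also called Kmt2a, is a large methyltransferase that places methyl groups on lysine 4 of histone H3 (H3K4) as part of a complex with Wdr5, Rbbp5, Ash2l and Dpy30. Its CXXC domain binds DNA in which CG dinucleotides are unmethylated, as they are at most CpG-island promoters, and menin and Psip1 help to hold the complex on chromatin. The trimethylated form, H3K4me3, is typical of active gene starts, and H3K4me1 of enhancers. Hox genes are the best known targets of Mll1, and in embryonic stem cells the protein has been studied for its part in leaving the naive pluripotent state.

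At 251 genes an Mll1 peak reached into the stretch from 250 bases before to 50 bases after an annotated start. The 250 bases before the start are shown for 5 of them, to show what DNA lies under such peaks. Zfp42 and Klf2 encode pluripotency factors, Hjurp loads the centromeric histone, Cenpn is a centromere protein, and Abhd4, a lipid enzyme gene, starts beside a gene-end peak that is among the 20 of highest score (27 tags, fold 14.5, false discovery rate 18.2%). Sequences are from RefSeq (GRCm38.p6), read 5′ to 3′ on the strand of the gene up to the base before the start, and capitals mark the bases under the Mll1 peak.
Zfp42: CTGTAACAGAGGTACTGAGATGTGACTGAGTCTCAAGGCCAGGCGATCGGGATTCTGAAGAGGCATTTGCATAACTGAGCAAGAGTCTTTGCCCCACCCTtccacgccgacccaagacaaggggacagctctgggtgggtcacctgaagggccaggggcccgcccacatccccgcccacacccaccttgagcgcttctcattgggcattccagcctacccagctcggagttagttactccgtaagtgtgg
Klf2: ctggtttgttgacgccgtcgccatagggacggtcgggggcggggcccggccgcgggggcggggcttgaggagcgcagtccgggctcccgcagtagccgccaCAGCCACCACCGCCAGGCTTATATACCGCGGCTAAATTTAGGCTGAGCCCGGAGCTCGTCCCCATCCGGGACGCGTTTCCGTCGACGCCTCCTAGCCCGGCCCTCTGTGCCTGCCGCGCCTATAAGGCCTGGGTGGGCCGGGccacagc
Hjurp: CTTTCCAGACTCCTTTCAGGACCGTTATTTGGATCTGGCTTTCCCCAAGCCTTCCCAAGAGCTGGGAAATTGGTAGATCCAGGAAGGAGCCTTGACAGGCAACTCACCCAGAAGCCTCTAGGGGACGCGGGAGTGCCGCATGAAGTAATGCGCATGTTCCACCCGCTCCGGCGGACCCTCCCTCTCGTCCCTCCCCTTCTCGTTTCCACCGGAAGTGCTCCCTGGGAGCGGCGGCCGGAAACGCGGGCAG
Cenpn: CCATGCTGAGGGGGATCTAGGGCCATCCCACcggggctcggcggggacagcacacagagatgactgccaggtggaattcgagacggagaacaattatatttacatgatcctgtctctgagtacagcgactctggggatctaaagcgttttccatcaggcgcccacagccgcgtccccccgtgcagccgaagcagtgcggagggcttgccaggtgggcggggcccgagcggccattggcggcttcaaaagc
Abhd4: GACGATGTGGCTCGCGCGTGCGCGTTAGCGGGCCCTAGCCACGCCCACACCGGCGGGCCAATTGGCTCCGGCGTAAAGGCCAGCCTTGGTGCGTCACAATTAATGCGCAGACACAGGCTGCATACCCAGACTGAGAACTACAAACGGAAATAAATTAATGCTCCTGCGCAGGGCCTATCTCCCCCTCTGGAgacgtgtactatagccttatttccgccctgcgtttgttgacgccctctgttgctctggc
The peaks differed in how they lay on these starts. At Zfp42 (minus strand, chromosome 8) the peak at 43307160-43307467 covered the 100 bases farthest from the start and held 20 tags. At Klf2 (plus strand, chromosome 8) the peak at 72318913-72319054 covered 142 of the 250 bases, 15 of the 29 CG dinucleotides and the summit 58 bases before the start, with 9 tags. The Hjurp peak, 2404 bp wide on chromosome 1 with 281 tags, covered the whole stretch, and its deposited false discovery rate was 33.3%. Under the Zfp42 peak lay 1 copy of the octamer ATTTGCAT (ATGCAAAT on the other strand), starting 186 bases before the start. The same letters occurred, on either strand, in 1.69% (0.848 to 3.01) of the 650 promoters with a peak within 1 kb of the start, against 1.72% of all 17492 promoters. These windows of 300 bases hold few of the peaks themselves, and the sequence under the other peaks was not read.

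The library held 30.1 M filtered tags (M stands for 1000000 tags) of 67.1 M in all, against 38.4 M filtered tags in its input, and 0.285% of its tags fell into nuclear peaks. In the 9 mark lists that share was 58.5% to 87.5%. A tag is a sequenced read end, kept once per position. The caller put the Mll1 fragments at 53 bp, close to the tag length of 51 bp, whereas it put mark fragments at 179 bp or more. The part of these values in where peaks were found was not tested. As a check of the cell type, untreated H3K4me3 lay at an end of 14 of 14 core pluripotency genes and 14 of 16 naive ones. It also lay at 11 of 12 trophectoderm, 11 of 13 primitive endoderm, 8 of 14 fibroblast and feeder, 10 of 10 mature neuron and 2 of 10 liver genes, so the presence of the mark alone did not set the cell type apart.

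Nearly all Mll1 peaks were narrow and shallow. The median width was 164 bp, with quartiles of 147 and 191 bp, and the median tag count was 11, with 9 as the lowest and 5159 as the highest. Peaks of 9 or 10 tags made up 39.5% of the list, those of 11 to 20 tags 56.6% and those of 21 to 49 tags 2.02%. A small number stood far above the rest: 77 peaks (1.92%) held 50 tags or more and carried 46.2% of all tags in peaks. They differed from the other peaks in width, fold enrichment, false discovery rate and marks. Their median width was 604 bp against 163 bp in the other 3927, and their median fold enrichment over the local background was 4.19 against 9.75. Their median false discovery rate, which the caller estimates by swapping the library and its input, was 9.71% against 1.87%. Between genes lay 53 of the 77, and H3K4me1 overlapped 16 of them (20.8%, 12.4 to 31.5) against 2855 of the other peaks (72.7%, 71.3 to 74.1).

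The deepest of these peaks lay on a few loci. The peak with most tags (chromosome 17, 39842976-39846953) held 5159 tags at a fold of 1.78, over a locus annotated as the pseudogene Rn18s-rs5, named for the 18S ribosomal RNA. On chromosome 11, Sfi1, a centrosome gene, held the peaks of 3939, 2533, 2067 and 1975 tags, the widest of them 9482 bp. Other peaks of 440 to 1273 tags lay together at chromosome 2, 98662213-98667336, more than 1000000 bp from the nearest protein-coding gene. High tags thus went with low fold enrichment, as the plot of tags against fold enrichment shows. When these 77 peaks were left out, none of the 27 values recomputed moved beyond its interval, or by over 1.5 times for a count.

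**Figure D1:**
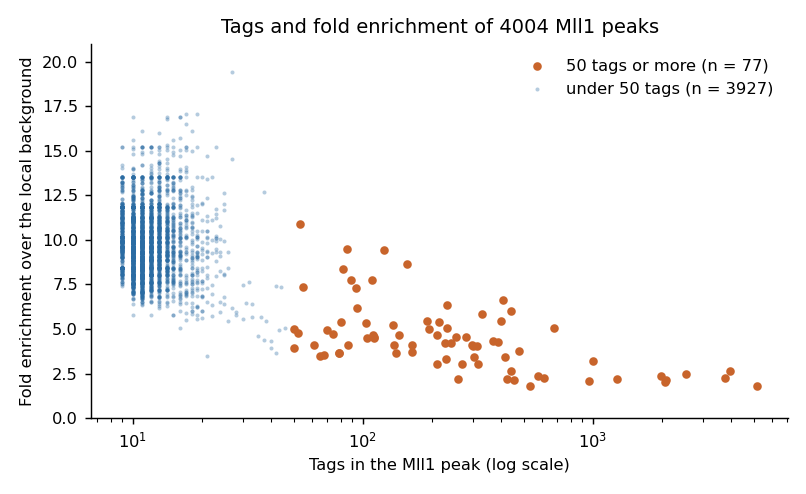
Tags in each Mll1 peak (x axis, log scale) against its deposited fold enrichment over the local background (y axis), with 1 point per peak. The 77 peaks of 50 tags or more (orange) had a median fold of 4.19 and the 3927 others (blue) a median of 9.75.

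Mll1 peaks lay at gene ends about as often as H3K4me1 and H3K4me2 did and less often than H3K4me3, and at the start more often than at the far end. Within 1 kb of an end of a protein-coding gene lay 847 peaks (21.2%, 19.9 to 22.5), although such stretches make up 2.93% of the chromosome span, the length from the outermost annotated gene or peak on one side of each chromosome to that on the other. In the untreated mark lists the share at gene ends was 21.6% for H3K4me1, 20.1% for H3K4me2 and 29.2% for H3K4me3. Any base of a peak within 1 kb of an end counted, and the mark peaks were wider. Their median widths were 1759, 1598 and 1305 bp in the same order, against 164 bp for Mll1, and the part of width in these shares was not tested. Gene bodies held 1686 peaks (42.1%, against 36.6% of the span), and 1471 lay between genes (36.7%, against 60.5%). Of the gene-end peaks, 132 lay at the ends of 2 genes and 2 at those of 3 or more. The start and the far end of a gene were not alike. Among 14060 genes at least 4 kb long with a known strand, 575 (4.09%, 3.77 to 4.43) had a peak within 1 kb of the start and 89 (0.633%, 0.509 to 0.778) within 1 kb of the far end, with 2 genes in both counts.

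Around the start the summits formed a broad peak rather than a sharp one. There were 56 summits per 100 bp in the last 200 bp before a start, 39.5 in the 200 bp after it, and 40 and 37.7 at 200 to 500 bp before and after. At 500 to 1000 bp the density was 23.4 before and 25.2 after, and at 2 to 3 kb it was 5.70 before and 8.20 after. Before and after the start the summits were thus about equally many, at 349 and 319 within 1 kb. Most summits counted were still far from a known start. Of 3890 summits on chromosomes with stranded genes, 668 (17.2%) lay within 1 kb, 916 (23.5%) at 1 to 10 kb, 1675 (43.1%) at 10 to 100 kb and 631 (16.2%) beyond. The 114 peaks of chromosome 18 were left out, since no gene there had a known strand. Starts were known for 17492 of 21887 protein-coding genes, so a summit at another start can count as farther away than it was. The peak farthest from any protein-coding gene (chromosome 1, 102773337-102773477, 9 tags) lay 1994863 bp from Cdh20, a cadherin gene.

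**Figure D2:**
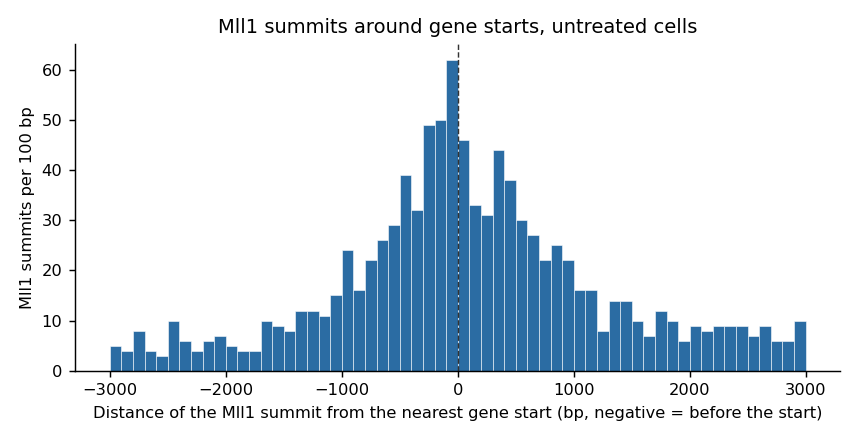
Number of Mll1 summits (y axis, per 100 bp) by distance to the nearest annotated start of a protein-coding gene with a known strand (x axis, bp, negative before the start). The density was 56 per 100 bp in the 200 bp before the start and 5.70 to 8.20 at 2 to 3 kb.

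The named peaks at gene ends were the 20 of highest score among those with a false discovery rate of at most 5%. They were not typical, since all 847 gene-end peaks had a median score of 56.1 and a median of 11 tags. The limit also left out gene-end peaks above that rate, such as the Hjurp peak of score 255.93. The peak of highest score there lay 837 bp from Elobl, held 367 tags and was an exception in depth. Next came narrow peaks at paired genes that start beside each other: Brca1, the DNA repair gene, and Nbr1 shared a peak of 13 tags (chromosome 11, 101552266-101552429, fold 13). Nfs1, an iron-sulfur cluster enzyme, and Romo1 shared 16 tags (chromosome 2, 156144391-156144640, fold 12.7). Cdc123 and Nudt5 shared 13 tags (fold 14.1). Others lay at the histone gene H4c2 (14 tags), the ferritin gene Fth1 (13 tags), Polr2e, a subunit of RNA polymerases (16 tags), and the ribosomal protein genes Rpl28 (20 tags), Rps16 (15 tags) and Rps3 (18 tags). The remaining genes of this set included Fgfr4, a growth factor receptor (14 tags), Nab2 (15 tags), Ambra1 (16 tags), Morc3 (13 tags) and Dbi (18 tags). Apart from Elobl, no peak of the 20 held more than 20 tags.

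Peaks also lay in groups along the chromosomes. A neighbour within 12500 bp was found for 872 peaks (21.8%, 20.5 to 23.1), whereas 3.30% of the chromosome span lay within that distance of a peak. Within 1 kb the values were 6.62% of peaks against 0.314% of the span, and within 100 kb 57.0% against 19.2%. Joined at 12500 bp, the peaks gave 376 clusters of 2 or more. There were 298 clusters of 2 peaks, 59 of 3 and 11 of 4, and 357 of the 376 held no peak of 50 tags or more. The grouped peaks lay on methylated chromatin more often than the lone ones: among peaks under 50 tags, H3K4me1 overlapped 85.8% (83.2 to 88.1) of 816 in clusters against 69.3% (67.6 to 70.9) of 3111 alone, and H3K4me3 62.6% (59.2 to 66.0) against 47.8% (46.0 to 49.6). By position they differed less, with 24.1% (21.2 to 27.2) of clustered peaks at gene ends against 20.7% (19.3 to 22.2) of lone ones.

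The clusters with most peaks were of different kinds. The first 3 were deep: 16 peaks at Gm33272 on chromosome Y, 9 at Sfi1 and Pisd-ps1 on chromosome 11, and 5 at Gm52481 on chromosome Y, with no H3K4me1 or H3K4me3 on the Y clusters. Most of the next ones were shallow and marked, except 4 peaks of 33 to 209 tags at Pisd-ps2 on chromosome 17, which overlapped H3K4me3 but not H3K4me1. Malat1, an abundant nuclear long non-coding RNA (chromosome 19), had 5 peaks of 9 to 20 tags between 5800157 and 5818443, with H3K4me3 on 4 of them. A cluster of 5 peaks of 12 to 20 tags lay on chromosome 14 (99340848-99351590), 27436 bp from Klf5. All 5 overlapped H3K4me1 and none overlapped H3K4me3, whereas the 3 peaks at Klf5 itself all overlapped H3K4me3. On chromosome 5 (118434948-118445924) a cluster of 5 peaks, 114406 bp from Med13l, a subunit gene of the Mediator kinase module, carried all 3 marks on every peak. Etf1, a translation release factor, and its neighbour Hspa9, a mitochondrial chaperone, shared 5 peaks of 10 to 15 tags on chromosome 18.

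Clusters of 4 shallow peaks included those at Dlc1, Trim28, Zscan10 and Bcl3, the last 3 of which are described below with their lists. By gene, Sfi1 had 11 peaks within 10 kb, Zfp978 had 10, Zmynd8 had 7 and Etl4 had 6. Long genes can hold more peaks by their length, and Etl4 spans 900329 bp. Among shorter genes with 5 peaks were Phc1, a Polycomb gene of 22497 bp, and Coil, the Cajal body gene, of 17679 bp.

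On the autosomes the density ranged from 1.20 peaks per Mb of span on chromosome 14 to 2.57 on chromosome 11. Chromosome X stood apart with 17 peaks, or 0.0996 per Mb, against 1.62 per Mb over the autosomes, a ratio of 0.0613. The marks were also sparser on X than on autosomes in the same cells, with ratios of 0.273 for H3K4me1, 0.309 for H3K4me2 and 0.415 for H3K4me3, but less so than Mll1. Of the 21 peaks on Y, 18 held 50 tags or more. The number of X chromosomes in these cells and its part in the low count were not tested.

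**Figure D3:**
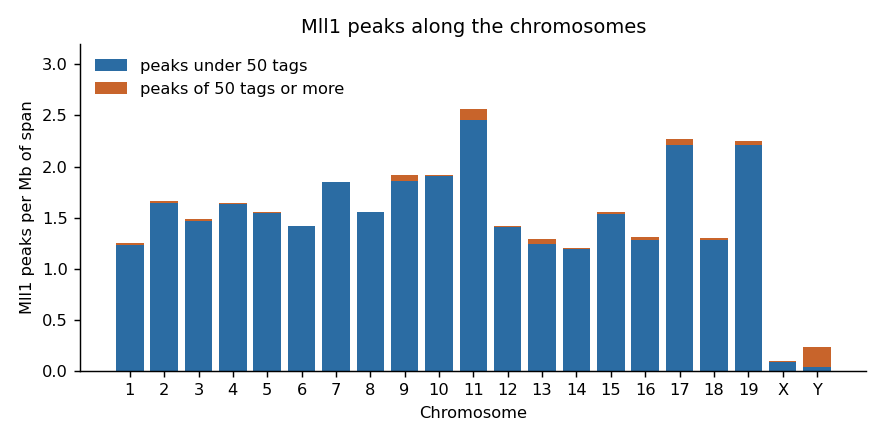
Mll1 peaks per Mb of chromosome span (y axis) for each chromosome (x axis), split into peaks under 50 tags (blue) and of 50 tags or more (orange). X had 0.0996 peaks per Mb, against 1.20 to 2.57 on the autosomes.

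Genes near an Mll1 peak were mostly genes that carried H3K4me3. Of 21887 protein-coding genes, 931 (4.25%) had a peak within 1 kb of an end, 1905 (8.70%) had the nearest one at 1 to 10 kb, 6658 (30.4%) at 10 to 100 kb and 12393 (56.6%) farther away. Untreated H3K4me3 lay at an end of 98.2%, 90.3%, 82.3% and 57.4% of the genes in these 4 classes, in the same order, and of 69.6% of all genes. In the other direction the share was small, since 914 (6.00%) of the 15225 genes with H3K4me3 had a peak within 1 kb. Where H3K4me3 was present, its level (the tags of its peaks at the gene's ends, per M filtered tags) was also lower the farther the gene lay from a peak. The medians were 61.2 within 1 kb, 56.4 at 1 to 10 kb, 47.3 at 10 to 100 kb and 36.5 beyond, against 43.9 over all genes with the mark. The same order held for H3K4me3 in treated cells. After MM-401 the medians were 71.9, 66.7, 55.0 and 42.7 tags per M from the nearest class to the farthest, and after 4-OHT they were 64.3, 58.7, 47.7 and 36.7.

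Pluripotency genes had a peak near them more often than most kinds of genes examined. Of 14 core pluripotency genes 6 had a peak within 1 kb (42.9%, 17.7 to 71.1), and of 16 naive pluripotency genes 6 (37.5%, 15.2 to 64.6), against 4.25% of all protein-coding genes. All 12 carried H3K4me3, and of the 28 genes of both lists that did, they made up 42.9%, against 6.00% of all H3K4me3 genes. The Dppa family had 3 of 5 (60%, 14.7 to 94.7), and those 3, Dppa2, Dppa3 and Dppa5a, are among the 12. Another 3 core and 2 naive genes had the nearest peak at 1 to 10 kb. The lists are small and were chosen with earlier results of these data known, so the shares describe these genes and no test was made.

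Nanog, a homeobox factor of the naive state, had 3 peaks. The peak at 122708216-122708399 on chromosome 6 held 13 tags with its summit 822 bp inside the gene, the next one held 9 tags with its summit 1048 bp inside, and the last held 10 tags with its summit 4570 bp before the start. All 3 overlapped H3K4me1, H3K4me2 and H3K4me3. Zscan10, a zinc finger factor, had 4 peaks, with 15 tags at 909 bp before the start and 10, 13 and 12 tags at 1191, 3373 and 4102 bp inside. Trim28, a corepressor that silences retroelements, had peaks of 14 tags at 1068 bp before the start, 17 tags at 1390 bp inside and 9 tags at 7925 bp before it. These genes thus had peaks on both sides of the start, none deeper than 17 tags.

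Among the naive genes, Klf5 had peaks of 15, 15 and 14 tags, of which 2 lay inside the gene. Dppa5a, a KH-domain RNA-binding protein gene, had the peak with the highest fold enrichment of these lists (16.9, with 16 tags, 613 bp from an end) and others of 9 and 11 tags. Zfp42 and Klf2, whose promoters are printed above, had 1 peak each. Sall4 (12 tags), L1td1 (10 tags), Dppa2 (10 tags), Tbx3 (10 tags) and Dppa3 (12 tags) had 1 peak each as well, and all 5 of these peaks overlapped all 3 marks. Tfcp2l1, a factor of the LIF pathway, had 3 peaks of 10 or 11 tags, at 2295 bp before the start and 14070 and 54240 bp inside, with H3K4me1 on each and H3K4me3 on none.

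Other leading pluripotency genes had no peak close by. The nearest one was 19721 bp from Pou5f1, the Oct4 gene, 46707 bp from Lin28a and 63058 bp from Klf4. Sox2, Utf1, Esrrb, Nr0b1 and Gbx2 had none within 100 kb. All but Esrrb of these 8 genes carried H3K4me3, and at Klf4 its level was 213 tags per M, above the 107 tags per M at Klf2. H3K4me3 at a pluripotency gene thus did not always come with a called Mll1 peak. The shallowest called peak held 9 tags, so a site with fewer tags was not detectable at this depth.

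Genes of the centromere and kinetochore, which hold chromosomes to the spindle, followed with 5 of 15 (33.3%, 11.8 to 61.6). The share was 4.25% over all protein-coding genes and 6.00% over those with H3K4me3, which all 15 genes carried. Besides Hjurp the 5 included Cenpn (12 tags, 196 bp from the start), Ndc80 (11 tags, 542 bp) and the motor gene Cenpe (10 tags, 604 bp). Without the peaks of 50 tags or more, the count was 4, since Hjurp drops out. Cenpa, the centromeric histone H3, had a peak of 13 tags at 1374 bp from its far end.

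In several lists more genes had the nearest peak at 1 to 10 kb than within 1 kb. The same held over all protein-coding genes, at 8.70% against 4.25%. Of 15 chromatin remodellers 2 had a peak within 1 kb, Smarca4 (10 tags) and Smarca5 (12 tags), and 6 more at 1 to 10 kb, against 8.70% of all genes at that distance. Bptf, a subunit of the NURF remodeller, had 5 peaks of 10 to 14 tags in or near the gene. Of 12 genes of the LIF and STAT3 pathway, which keeps these cells undifferentiated, 2 were within 1 kb and 5 at 1 to 10 kb. Bcl3 had 4 peaks of 9 to 12 tags, and Stat3 and its inhibitor Socs3 had the nearest peak at 8254 and 4951 bp. Of 17 cell cycle genes 2 were within 1 kb, Aurka and Ccnd2, and 7 at 1 to 10 kb, among them Ccnd1, Ccnd3 and Mycn. Housekeeping genes gave the same counts, 2 and 7 of 17.

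The Mll complex's own genes had no peak within 1 kb of an end, a count that the 4.25% of all genes does not set apart in lists of this size. None of 15 shared subunits and none of 9 Kmt2 and Setd1 methyltransferases had a peak within 1 kb, which allows shares of up to 20% and 33.3%, here and below taken as 3 genes of the list. At 1 to 10 kb lay the nearest peak of 6 of the 15 subunits, Wdr5, Rbbp5, Ash2l, Dpy30, Wdr82 and Kat8, against 8.70% of all genes. These distances are from the gene ends, so a peak farther inside a gene does not count as within 1 kb. A cluster of 3 peaks of 10 to 22 tags (chromosome 17, 74306138-74317355) overlapped Dpy30. For Kmt2a itself the nearest peak lay 30330 bp from its far end (16 tags, fold 16.9, false discovery rate 15.5%). Since Mll1 was not mapped in deleted cells, the antibody could not be checked against loss of the protein.

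Hox genes, the classic targets, had a peak within 100 kb in nearly all cases. Of 39 genes in the clusters 3 were within 1 kb (7.69%, 1.62 to 20.9), 7 at 1 to 10 kb, 27 at 10 to 100 kb and 2 farther away, and all 39 carried H3K4me3. Over all protein-coding genes the shares were 4.25%, 8.70%, 30.4% and 56.6% in the same order, and the Hox interval within 1 kb includes 4.25%. These counts come from few peaks, since neighbouring genes share them. Hoxa2 had a peak of 9 tags with its summit 144 bp inside the gene, and Hoxa5 a peak of 9 tags near its far end, where H3K4me1 and H3K4me2 but not H3K4me3 overlapped it. Hoxc11 had a peak of 11 tags at 959 bp. The peak of 18 tags at 103001241-103001464 on chromosome 15, inside Hoxc6, was the deepest nearest peak of any Hox gene. For all 10 genes of HoxB the nearest peak was the same one of 11 tags, 3744 bp from Hoxb9, and for 7 of 9 HoxD genes it was a peak of 9 tags beyond Hoxd1.

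Families made of many similar genes spread on both sides of the 4.25% of all protein-coding genes. Cytosolic ribosomal protein genes had 10 of 84 within 1 kb (11.9%, 5.86 to 20.8), proteasome subunits 4 of 40 (10.0%, 2.79 to 23.7) and mitochondrial ribosomal proteins 6 of 78 (7.69%, 2.88 to 16.0), and the intervals of the last 2 include 4.25%. Clustered histone genes had 5 of 63 within 1 kb (7.94%, 2.63 to 17.6) and 24 at 1 to 10 kb, where 8.70% of all genes lay. None of the 63 was farther than 100 kb from a peak, against 56.6% of all genes. Neighbouring histone genes can share a peak, whereas the interval counts each gene separately. Zinc finger genes named Zfp had 28 of 397 (7.05%, 4.74 to 10.0). Receptor families that mostly lacked H3K4me3 were the opposite case: none of 1110 olfactory receptor genes had a peak within 1 kb, which allows a share of up to 0.270%, and none of 353 vomeronasal receptor genes did (up to 0.850%). Of the olfactory receptor genes 995 (89.6%) were over 100 kb from a peak, against 56.6% of all protein-coding genes, and 2.70% carried H3K4me3.

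Lineage genes outside the pluripotent state were too few per list to set apart from the 4.25% of all genes. None of 12 trophectoderm, 13 primitive endoderm or 15 neuroectoderm genes had a peak within 1 kb, which allows up to 25%, 23.1% and 20% by the same 3-gene limit. H3K4me3 lay at 11 of 12, 11 of 13 and 15 of 15 of them. Of the primitive endoderm genes 12 (92.3%) had no peak within 100 kb, the exception being Gata6 at 1 to 10 kb. That far from a peak lay 56.6% of all protein-coding genes and 46.7% of those with H3K4me3. Primitive streak and mesoderm genes had 1 of 16, Tbx6. Polycomb genes had none within 1 kb of an end, of 12 in PRC2 and 19 in PRC1, which allows up to 25% and 15.8%. Peaks farther inside a gene are not in this count, and the PRC1 gene Phc1 had 5 peaks in the gene or within 10 kb of it.

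Further lists are read against the 4.25% of all protein-coding genes. Genes of DNA methylation and its removal had 2 of 15 (13.3%, 1.66 to 40.5), Uhrf1, which guides the maintenance methyltransferase, and Hells, a remodeller needed for methylation, and 4 more had the nearest peak at 1 to 10 kb. The intervals of these small lists include 4.25%: Wnt signalling genes had 2 of 16 (1.55% to 38.3%), mitochondrial ATP synthase genes 2 of 13 (15.4%, 1.92 to 45.4), complex I subunits 2 of 40 and glycolysis genes 1 of 15. Solute carriers had 14 of 375 (3.73%, 2.06 to 6.18) and cytochrome P450 genes 2 of 98. None of 109 keratin genes (up to 2.75%), 33 Rhox genes (up to 9.09%), 16 imprinted genes (up to 18.8%) or 9 genes of the 2-cell-like state (up to 33.3%) had a peak within 1 kb. All 9 of the last were over 100 kb from a peak, as were 56.6% of all protein-coding genes.

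**Figure D4:**
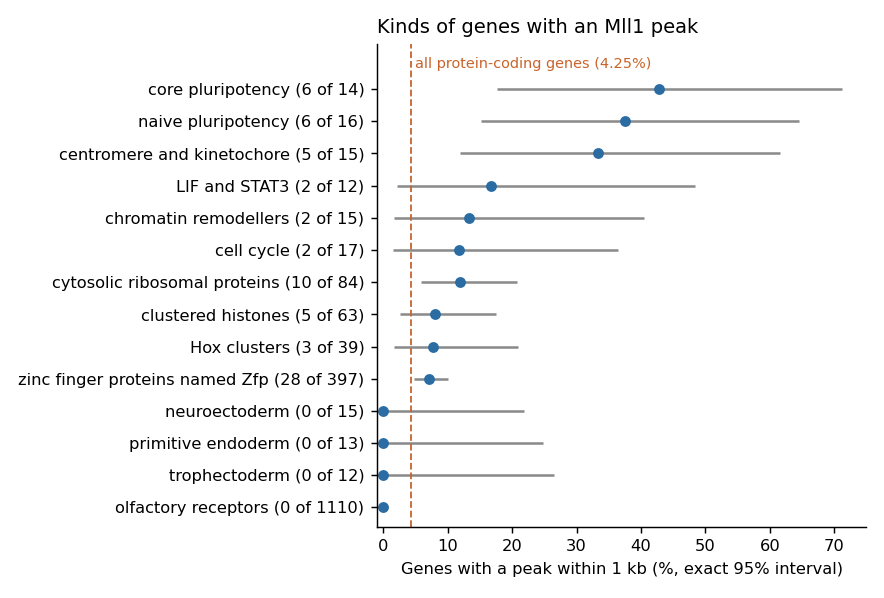
Share of genes with an Mll1 peak within 1 kb of an end (x axis, percent) for lists and families of genes (y axis, with counts). Points are shares and lines exact 95% intervals, and the dashed line marks 4.25% of all protein-coding genes. Of the 14 kinds drawn, core pluripotency (42.9%), naive pluripotency (37.5%) and centromere genes (33.3%) lay farthest to the right. Their intervals, and those of cytosolic ribosomal proteins and Zfp genes, lay above the line, and olfactory receptors were at 0. Of all genes with H3K4me3, 6.00% had such a peak, and the intervals of ribosomal protein and Zfp genes include that value.

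Genes of small RNAs differed by kind. Measured from the whole gene, 41 of 408 transfer RNA genes (10.0%, 7.31 to 13.4) had a peak within 1 kb, against 1.38% of 1228 microRNA genes, 1.10% of 1004 small nuclear RNA genes and 1.04% of 1340 small nucleolar RNA genes, which are of similar length. Over all 49943 annotated genes of any kind the share was 5.94%. The 41 tRNA genes shared 25 peaks, and 9 of the 41 also lay within 1 kb of a protein-coding gene. All 41 were among the 297 tRNA genes with H3K4me3 within 1 kb, of which they made up 13.8%. Among marked genes of the other small RNAs the share was 4.23% for microRNA, 8.77% for small nuclear and 5.48% for small nucleolar RNA genes. For marked protein-coding genes it was 13.7%, but their median length was 17169 bp against 72 bp for tRNA genes. A peak anywhere in the gene counted, so that value is not like for like. On chromosome 6 the peak at n-TRcct1, an arginine tRNA gene named here after its values were seen, held 26 tags at a false discovery rate of 11.1%, and the other tRNA peaks held 9 to 15.

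A peak of 11 tags on chromosome 7 (3218215-3218380) lay 246 bp before Mir290a, at the head of the miR-290 cluster, whose microRNAs are abundant in mouse embryonic stem cells and speed their passage into S phase. Mir290a, Mir290b, Mir291a, Mir292 and Mir292b all lay within 1 kb of it and made up 5 of the 17 microRNA genes near a peak. The mature sequences of 4 products, from RefSeq (GRCm38.p6), are shown because they are what this locus makes, with the seed (bases 2 to 8) in capitals.
miR-290a-5p: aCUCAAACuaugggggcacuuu
miR-292a-5p: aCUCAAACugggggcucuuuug
miR-290a-3p: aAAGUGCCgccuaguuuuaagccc
miR-291a-3p: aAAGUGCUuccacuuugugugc
The seed CUCAAAC of miR-290a-5p and miR-292a-5p occurred in 3 mature mouse microRNAs of the RefSeq table, and the seed AAGUGCU of miR-291a-3p in 5. Of the 17 microRNA genes, 16 had a mature sequence there. Other microRNA genes near a peak, chosen after their values were seen, were Mir137 (10 tags, 498 bp) and Mir301b (18 tags, 802 bp).

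H3K4 methylation over the Mll1 peaks was compared across conditions to see whether the sites kept their marks. H3K4me3 overlapped 43.9% (42.3 to 45.4) of the peaks in MM-401 cells, 55.5% (53.9 to 57.0) in 4-OHT cells and 50.4% (48.8 to 52.0) in untreated cells. The amount of chromosome under the mark moved in the same order, at 2.71%, 3.88% and 3.38% of the span, as did depth, at 12.9, 26.4 and 25.3 M filtered tags. At gene ends the share hardly differed, at 89.5% in MM-401 cells, 91.4% in 4-OHT cells and 90.9% in untreated cells. Between genes it was 27.6% in MM-401 cells, 40.7% in 4-OHT cells and 35.4% in untreated cells. H3K4me1 overlapped 65.1% of the peaks in MM-401 cells, 74.8% in 4-OHT cells and 71.7% in untreated cells, and H3K4me2 63.7%, 72.3% and 68.2% in the same order. The part of depth and of the total marked length in these differences was not tested, and with 1 library each they are values of these libraries.

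**Figure D5:**
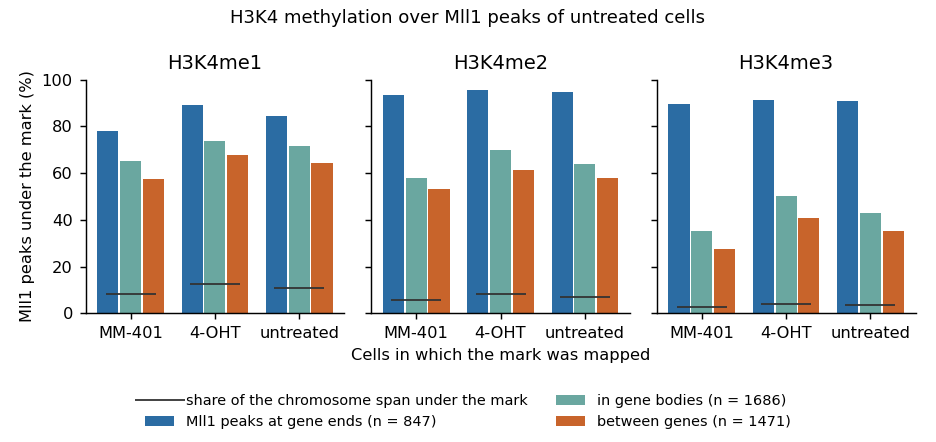
Share of Mll1 peaks of untreated cells overlapped by H3K4me1, H3K4me2 or H3K4me3 (y axis, percent) in MM-401, 4-OHT and untreated cells (x axis), for peaks at gene ends, in gene bodies and between genes. Short black lines give the share of the chromosome span under the mark. H3K4me3 lay on 89.5% to 91.4% of gene-end peaks in every condition and on 27.6% to 40.7% of peaks between genes.

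Within untreated H3K4me3 peaks the Mll1 summit lay in the inner parts more often than at the edges. Of 1957 summits inside an untreated H3K4me3 peak, with that peak divided into 5 equal parts, 15.6% and 13.6% lay in the outer parts and 23.4%, 24.4% and 23.0% in the inner ones. The H3K4me3 peaks that held a summit were wide and deep. The 1823 of them had a median width of 2705 bp and 34.6 tags per M, against 1305 bp and 3.88 tags per M over all 52912. A wider peak also has more room for a summit.

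Promoters with an Mll1 peak near the start were rich in CG dinucleotides. The median in the 300 bases around the start was 21 (quartiles 14 and 29) for the 650 genes with a peak within 1 kb of it, against 13 (4 and 24) for all 17492 promoters. At most 4 CG dinucleotides were found in 4.15% (2.75 to 5.99) of promoters with a peak, against 29.1% of all. Much of that gap went with the mark: over the 12108 promoters of genes with H3K4me3 the median was 20 (11 and 28), and 7.85% had at most 4. By distance of the nearest peak from either gene end, the median CG count was 21 within 1 kb, 19 at 1 to 10 kb, 17 at 10 to 100 kb and 8 beyond.

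Of 8 short motifs searched on both strands, the ETS-type letters CCGGAAG stood out. They occurred in 22.0% (18.9 to 25.4) of promoters with a peak, against 11.9% of all promoters and 16.2% of those with H3K4me3, and 1 copy lies under the peak in the Hjurp sequence above, 42 bases before the start. The GC box CCGCCC occurred in 66.8% (63.0 to 70.4) of promoters with a peak, against 46.3% of all and 63.0% of those with H3K4me3. The NRF1-type palindrome occurred in 2.62% (1.53 to 4.15) of promoters with a peak, against 1.33% of all and 1.88% of those with H3K4me3. The other motifs were near the H3K4me3 value: TATAAA in 6.92% of promoters with a peak against 7.40% of those with H3K4me3, ATTGG in 39.4% against 39.0%, CACGTG in 10.6% against 9.89% and TTTGGCGC in 1.08% against 0.875%. A match gives letters in the window and says nothing of binding.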

How the data were processed

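Chromatin from mouse embryonic stem cells was immunoprecipitated for Mll1 (untreated cells) and for 3 methylation states of H3K4 (3 conditions). The 14 libraries comprised 4 inputs and gave 10 peak lists, with 1 library per group. Reads were aligned to mm10 with Bowtie2 and SAMtools 1.5, per the submitters' processing notes, which also name MACS2. Peaks were called with MACS 1.4.2, per the file headers, which were followed here: duplicates removed, p cutoff 1e-05, genome size 2.7e+09, band width 300 and local windows of 1000 and 10000 bp. Per the file headers, each list gives a tag count per peak, not scaled to depth. The fold enrichment over the local background was deposited as a ratio. The false discovery rate was deposited as a percentage. The score is deposited as minus 10 times log10 of the p-value.

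Distances were computed to either end of 21887 protein-coding genes of RefSeq GRCm38.p6, of which 17492 had a strand and a promoter sequence. Any overlap of 1 base counted as shared. Intervals are exact binomial. Functions were tested on simulated data. Python 3.11.15, NumPy 2.4.6, pandas 2.3.3, SciPy 1.17.1 and matplotlib 3.10.9 were used. Of 488 entries in 37 gene lists, 487 were found (471 different genes), and 21 families were taken by symbol. The peaks, lists and families were chosen with earlier results of these data known. Genes named in the text are members of these lists and families, or lie at the 20 peaks with most tags or highest score, the 20 gene-end peaks of highest score with a false discovery rate of at most 5%, the 10 widest or 10 farthest peaks, the 10 clusters with most peaks, or are the 15 genes with most peaks. Exceptions are stated. No genome sequence was used here beyond the RefSeq promoter and microRNA tables. Alternatives covered the score, the false discovery rate, the reach of a gene end, the cluster gap and the overlap. Values of some single genes are not reported here.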

Additional observations from a re-analysis of the deposited data

Results flagged for a closer look

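The Mll1 list also held 5 peaks on the mitochondrial genome, outside the nuclear list, where the 9 mark lists of the same line held 0. They covered 11282 bp and 17168 tags, or 0.0570% of the filtered tags of the library. The deepest held 8110 tags, and the fold enrichment over the local background ranged from 5.72 to 7.97. They were set apart because they lie outside the chromosomes on which the other values were measured, and no explanation was tested.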

How the results depend on the processing

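Of 144 values recomputed for 27 results, 100 stayed within their interval, or within 1.5 times for a count. Leaving out the peaks of 50 tags or more and measuring from the gene body were chosen after seeing the data, and the first moved none of the 27. The strict score of 100 left 73 peaks and moved most values. A higher score did not mean a lower false discovery rate. The deposited rate was 1.76% at a score of 54.22, 11.8% at 98.83 and 37.5% at 280.98, though 0% at the highest score, 1098.77. Among the 73 peaks the median width was 367 bp and the median tag count 37, with 23.3% at gene ends, 27.4% in gene bodies and 49.3% between genes. Clusters, of which 8 were left, held 30.1% of the peaks. The nearest peak was within 1 kb for 20 genes, at 1 to 10 kb for 32 and at 10 to 100 kb for 177. Within 1 kb were 0 pluripotency, 0 Hox, 0 ribosomal protein, 0 histone and 1 centromere gene. H3K4me1, H3K4me2 and H3K4me3 lay on 50.7%, 68.5% and 50.7% of them in MM-401 cells, on 46.6%, 61.6% and 65.8% in 4-OHT cells, and on 56.2%, 58.9% and 53.4% in untreated cells. At a false discovery rate of at most 5% the median width was 162 bp and 19.3% of peaks were in clusters. With gene ends reaching 2 kb, 29.4% of peaks were at gene ends, 36.8% in bodies and 33.8% between genes, and 16 ribosomal protein genes had a peak. Counting only the starts of genes with a strand (17492 of 21887), 15.1% of all 4004 peaks were at a start. That value thus also leaves out the starts of the other genes. A gap of 5 kb gave 248 clusters with 13.9% of peaks, 50 kb gave 639 with 42.2%, and clusters of at least 3 peaks numbered 78 with 6.89%. Where the mark had to cover as much of the peak as it left bare, or more, H3K4me1 lay on 63.5% in MM-401 cells and 69.8% in untreated cells. From the gene body, 2296 genes were within 1 kb and 1159 at 1 to 10 kb, with 5 Hox genes and 1 olfactory or vomeronasal receptor gene within 1 kb. The cause of these moves was not tested beyond the smaller number of peaks and the wider or narrower reach. No paired analysis was possible because each group had 1 library and no test was made.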
